A study of Rattus norvegicus with 6 samples.

Results

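The transcripts described here belong to 9 rat genes of red cells and their precursors, Alas2, Hbb, Hbb-b1, Klf1, Slc4a1, Ahsp, Gata1, Epor and Epo, out of 15645 genes that could be named on the array. They were chosen by name, as genes of reticulocytes and erythroid precursors together with the hormone that drives them. Earlier results of these data were known at that choice, so their shares set beside those of all probes are descriptions. The array carried 17 probes for these genes, and each probe was followed separately. The samples were renal cortex of male Sprague-Dawley rats, bought at 5 weeks of age. In the first group, 3 rats received monuron, a phenylurea herbicide, at 200 mg/kg/day for 4 weeks. In the other group, 3 rats received corn oil over the same 4 weeks. RNA of each rat went, with Cy3 as its dye, onto an Agilent oligonucleotide array of its own, 6 arrays in all. The labels do not say how the monuron was given or whether the kidneys were flushed of blood.

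Red cells arise in the marrow under the hormone erythropoietin, encoded by Epo, which in adults is made mainly by interstitial cells of the renal cortex. The hormone binds its receptor Epor on erythroid precursors, where the transcription factors Gata1 and Klf1 switch on the genes for heme synthesis, for globin chains and for membrane proteins. Young red cells that have lost their nucleus, the reticulocytes, keep RNA of these genes for a while and carry it in the circulation.

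Levels are given as scaled signal, a probe's processed intensity divided by the 75th percentile of its own array, so that 1 is that percentile. A level of one probe cannot be set against that of another. Between 60.9% of the 61537 probes (corn oil replicate 2) and 70.4% (monuron replicate 1) were well above background, and 0 spots were saturated. The labelled tissue was borne out by 14 renal cortex genes, whose summed scaled signal was 1591 to 1656 on the monuron arrays and 1738 to 1819 on the corn oil arrays. The 3 monuron arrays lay on 1 slide and the 3 corn oil arrays on another, scanned on different days, so that slide, scan and treatment cannot be told apart.

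Red cell transcripts were higher in the renal cortex of monuron-treated rats. Of the 17 probes, 15 passed the detection filter, which asked, in either group, for detection (a signal well above background) by all 3 of its arrays, and these stood for 8 of the 9 genes. By limma's moderated test, adjusted over all 41125 probes that passed (threshold 0.05), 6 probes of 4 genes rose: the only Alas2 probe, both Hbb probes, 2 of 3 Hbb-b1 probes and 1 of 2 Klf1 probes. None of the 15 fell. Over all probes tested, 0.832% were called higher (342 probes) and 0.391% lower (161 probes). Every monuron array lay above every corn oil array at 13 of the 15 probes, against 14.9% of all probes tested, and 0 of the 15 lay wholly below, against 10.7%. The median log2 fold change was 0.98 over the 15 probes and 0.02 over all probes. The Gata1 probe, which is among the 13 without overlap, passed the filter through its monuron arrays alone, and the filter favours such a separation. Without Gata1 the median of the 14 probes detected on all 6 arrays was 0.96.

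The number of calls depended on single arrays, while the median log2 fold change over the 15 probes was between 0.95 and 1.15 with any one of them left out. Scaling to the spike-in controls moved that median to 0.47 and the median of all probes to -0.49. Without monuron replicate 1, 2 or 3, or without corn oil replicate 2, 0 of the 15 probes were called, with unadjusted p under 0.05 at 11, 12, 11 and 12 of them. Among all probes these settings left 43, 61, 19 and 96 called higher. Unadjusted limma p was under 0.05 at 6154, 5622, 5919 and 6082 of the 41425, 41862, 41643 and 41584 probes tested. Leaving out corn oil replicate 1 left 3 calls and leaving out corn oil replicate 3 left 5. With monuron replicate 1 and corn oil replicate 3 both left out, the arrays on which hepatocyte transcripts were highest in each group, 0 probes were called, 10 had an unadjusted p under 0.05, and the median log2 fold change over the 15 probes was 1.06. The same setting left 0 calls among all probes, and so among the other gene lists, with an unadjusted limma p under 0.05 at 5564 of 41495. In bulk tissue, more cells of a type and more RNA per cell cannot be told apart.

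**Figure D1:**
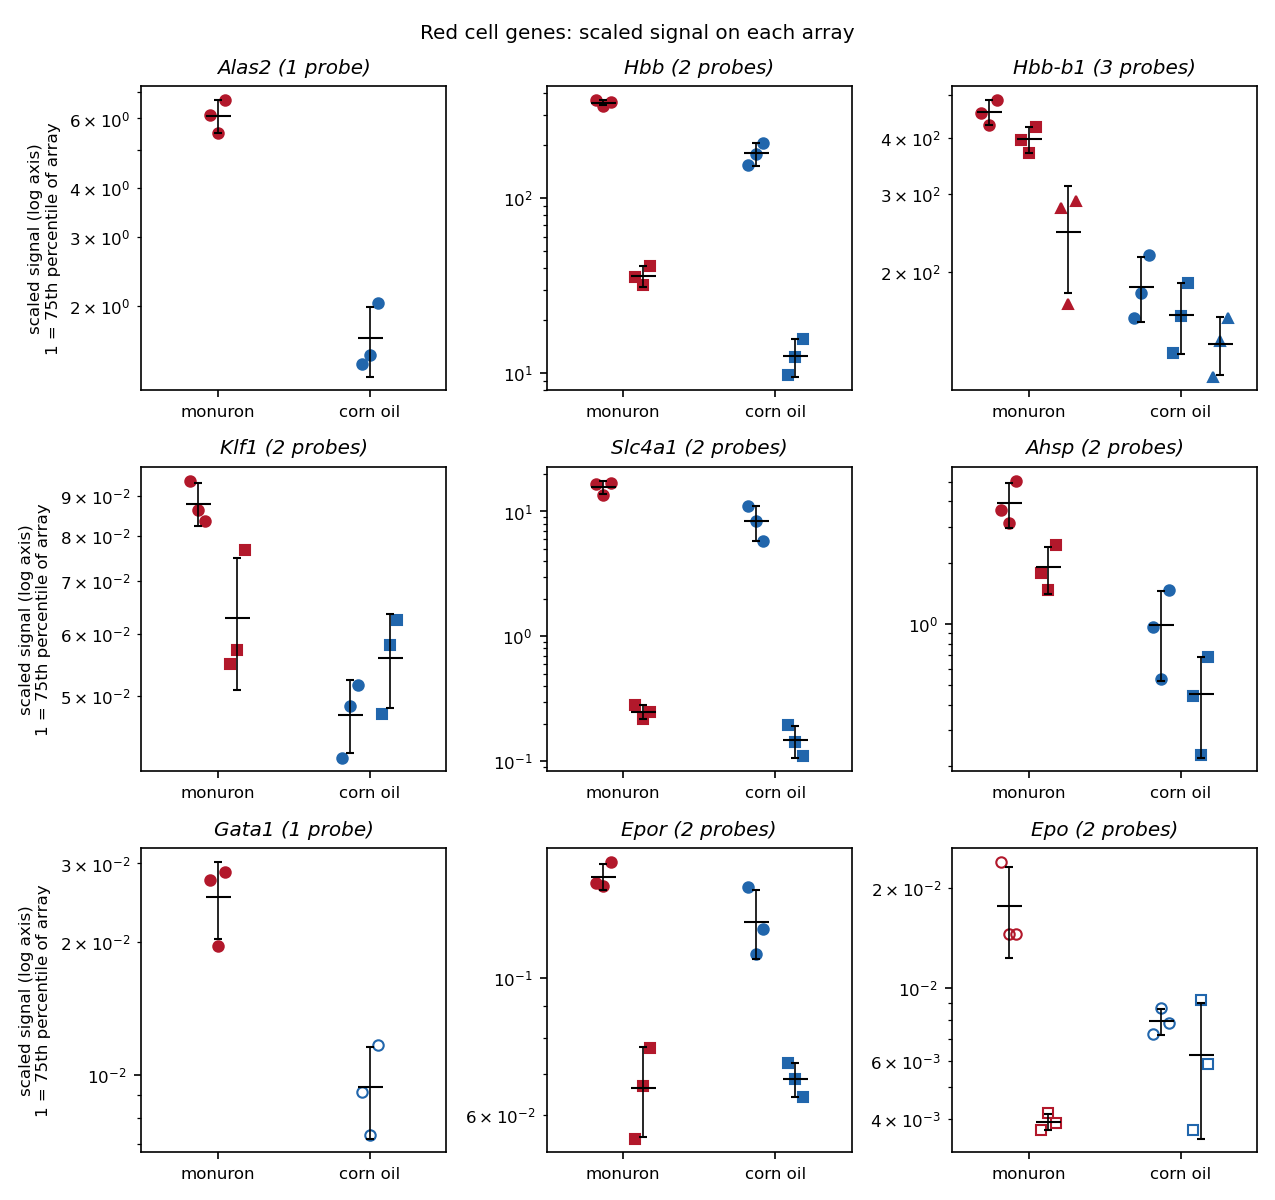
Scaled signal (log axis, 1 is the array's 75th percentile) of every probe of the 9 genes, 1 panel per gene, with the 3 monuron arrays left of the 3 corn oil arrays and a bar for the mean ± SD. Filled points mark a probe detected by all 3 arrays of the group, and the 3 monuron points of Alas2 at 5.50 to 6.68 stand clear of the corn oil points at 1.42 to 2.03.

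Alas2 encodes the erythroid form of 5-aminolevulinate synthase, the first and rate-limiting enzyme of heme synthesis in red cell precursors. Its probe read 6.13, 5.50 and 6.68 on the monuron arrays, against 1.42, 1.50 and 2.03 on the corn oil arrays. The lowest monuron value was well above the highest corn oil value. The means were 6.10 ± 0.589 with monuron and 1.65 ± 0.332 with corn oil (SD, n = 3 each), a 3.73-fold difference (95% interval 2.85 to 4.89). The log2 fold change was 1.90 ± 0.16 (SE), with a limma adjusted p of 0.0118, and it ranked 122 of the 41125 probes from the top. Without any single array the log2 fold change was between 1.80 and 2.06, with limma adjusted p from 0.0265 to 0.0693.

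Hbb and Hbb-b1 encode beta-type globin chains, which pair with alpha chains to form hemoglobin. The beta globin genes of the rat are close copies of each other, so their probes may share transcripts and are not independent. The first Hbb probe read 361, 337 and 356 in the monuron group, against 154, 179 and 207 in the corn oil group. It rose 1.97-fold (95% interval 1.60 to 2.41, limma adjusted p = 0.0325). The second Hbb probe read 35.2, 31.6 and 41.0 in the monuron group, against 9.68, 12.3 and 15.7 in the corn oil group. It rose 2.90-fold (95% interval 2.07 to 4.06, limma adjusted p = 0.0347). At both probes corn oil replicate 1 was the lowest array and the groups stood apart.

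For Hbb-b1, the probe A_64_P088393 read 455, 427 and 487 with monuron, against 158, 179 and 218 with corn oil. Its log2 fold change was 1.31 ± 0.13, which is 2.48-fold (95% interval 1.98 to 3.12, limma adjusted p = 0.0193). These were among the brightest spots of the array, yet the highest unscaled signal, 422860, was below the saturation value of about 778905. The probe A_64_P088392 read 396, 371 and 423 with monuron, against 132, 159.6 and 189 with corn oil, and rose 2.50-fold (95% interval 1.96 to 3.20, limma adjusted p = 0.0234). The third probe, A_44_P139956, read 278, 169.7 and 289 with monuron, against 117, 139.8 and 158 with corn oil. Monuron replicate 2 lay close to the corn oil arrays there, and the log2 fold change of 0.80 ± 0.24 did not pass the test (limma adjusted p = 0.177).

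Ahsp encodes the alpha-hemoglobin stabilising protein, a chaperone that holds free alpha globin until it meets a beta chain. Its probes had the highest log2 fold changes of the 9 genes, and neither passed the test. Both did with normexp background correction (limma adjusted p = 0.0378 and 0.0441). Both also did with spike-in scaling (limma adjusted p = 0.0121 and 0.0137), but with smaller log2 fold changes, 1.57 and 1.67. Their unadjusted limma p were larger there, 0.0060 and 0.0071, against 0.0018 and 0.0023 in the main test. That scaling called 28871 of all probes lower, which loosens the adjustment for every probe. The probe A_43_P16887 read 3.64, 3.13 and 5.04 on the monuron arrays, against 0.971, 0.536 and 1.46 on the corn oil arrays. Its log2 fold change was 2.08 ± 0.39 (4.22-fold, 95% interval 2.18 to 8.19, limma adjusted p = 0.0808). The probe A_64_P150726 read 1.78, 1.47 and 2.43 on the monuron arrays, against 0.441, 0.227 and 0.692 on the corn oil arrays. Its log2 fold change was 2.18 ± 0.43 (4.52-fold, 95% interval 2.19 to 9.33, limma adjusted p = 0.0899). The groups did not overlap at either probe, and the corn oil arrays spread widely, with replicate 2 lowest and replicate 3 highest.

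**Figure D2:**
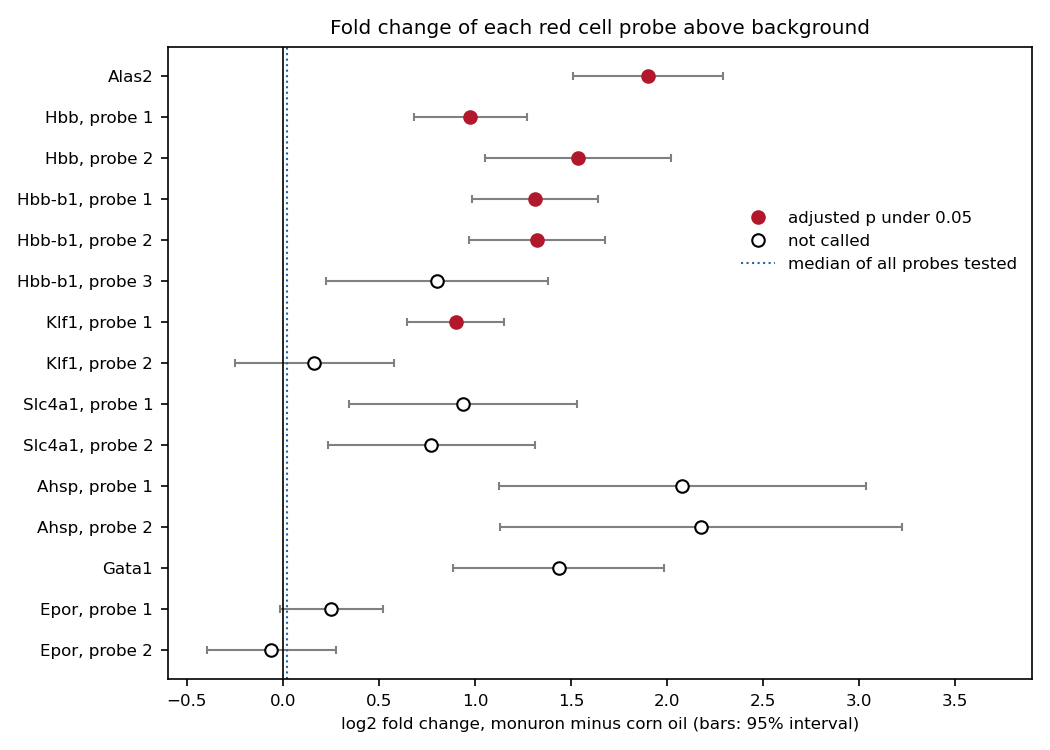
Log2 fold change, monuron minus corn oil, with its 95% interval for the 15 probes that passed the detection filter (3 arrays per group). Filled red points mark a limma adjusted p under 0.05 and the dotted line the median of all probes at 0.02, and the Ahsp probes sit farthest right, with wider intervals than Alas2 and without a call.

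Gata1, the zinc finger factor that directs erythroid and megakaryocyte differentiation, was dim. Its probe read 0.0275, 0.0195 and 0.0287 with monuron and was detected on each of the 3. With corn oil it read 0.00915, 0.00732 and 0.0117 and was detected on none of the 3. Only a bound can therefore be given, obtained by setting the monuron mean against the mean of the lowest signal that counted as well above background on each corn oil array, or of the probe's own signal where higher. By that bound Gata1 was at least 1.06-fold higher with monuron in group mean (limma adjusted p = 0.0535 on the measured values, undetected ones included). On corn oil replicate 2 the lowest such signal, 0.0359, was above all 3 Gata1 readings with monuron. With dim values set to that floor its log2 fold change was 0.085 (limma adjusted p = 0.925).

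Klf1, the Krüppel-like factor that activates the adult beta globin gene, had a pair of probes that gave different results. The probe A_44_P217964 read 0.0941, 0.0863 and 0.0835 with monuron, against 0.0417, 0.0486 and 0.0516 with corn oil. It rose 1.87-fold (95% interval 1.56 to 2.22), a log2 fold change of 0.90 ± 0.10 with a limma adjusted p of 0.0267, and 0.0558 to 0.120 with single arrays left out. This probe was dim: on corn oil replicate 2 the lowest signal well above background was 0.0359. Its log2 fold change was 0.50 with normexp (limma adjusted p = 0.0203) and 0.39 with spike-in scaling (limma adjusted p = 0.0448). The probe A_64_P132014 read 0.0548, 0.0572 and 0.0767 with monuron, against 0.0473, 0.0581 and 0.0624 with corn oil. Here the groups overlapped and the log2 fold change was 0.16 ± 0.17 (95% interval of the ratio 0.839 to 1.49, limma adjusted p = 0.660). Over the 6 arrays the log2 levels of these probes had a Pearson r of 0.43, whereas those of the Ahsp pair had 1.00 and those of the Hbb pair 0.99. Averaged over its probes, Klf1 had a log2 fold change of 0.53 (limma adjusted p = 0.102).

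Epor, the erythropoietin receptor, did not pass the test at either probe. The probe A_64_P021686 read 0.143, 0.141 and 0.154 in the monuron group, against 0.140, 0.109 and 0.120 in the corn oil group. These groups did not overlap, but monuron replicate 2 and corn oil replicate 1 almost met, and the log2 fold change was 0.25 ± 0.11 (ratio 1.19, 95% interval 0.988 to 1.43, limma adjusted p = 0.312). The probe A_44_P486972 read 0.0550, 0.0670 and 0.0770 in the monuron group, against 0.0728, 0.0687 and 0.0643 in the corn oil group. The groups overlapped, with a ratio of 0.959 (95% interval 0.761 to 1.21, limma adjusted p = 0.854).

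Epo itself was at the limit of detection, and neither of its probes passed the detection filter. The probe A_64_P004043 read 0.0240, 0.0146 and 0.0145 with monuron, against 0.00724, 0.00867 and 0.00783 with corn oil. It was well above background on monuron replicate 1 alone, 1 of the 6 arrays. All 3 monuron readings were above the corn oil readings, but 5 of the 6 were not above background. Fitted without the filter, the probe was not called (limma adjusted p = 0.195). The probe A_44_P320709 read 0.00372, 0.00417 and 0.00390 with monuron, against 0.00370, 0.00916 and 0.00588 with corn oil, and was not well above background on any array (limma adjusted p = 0.551 without the filter). The lowest signal that counted as well above background was 0.0156 to 0.0178 on the monuron arrays and 0.0152 to 0.0359 on the corn oil arrays. A difference in Epo was not detectable at this signal, and no fold is given.

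Slc4a1 encodes band 3, the chloride and bicarbonate exchanger of the red cell membrane, and the kidney makes a shorter form of it in acid-secreting intercalated cells. The probe A_44_P289637 read 16.6, 13.5 and 17.0 on the monuron arrays, against 11.0, 8.40 and 5.85 on the corn oil arrays. The groups did not overlap, and the log2 fold change of 0.94 ± 0.24 did not pass the test (1.91-fold, 95% interval 1.27 to 2.89, limma adjusted p = 0.143). The probe A_43_P11502 read 0.280, 0.219 and 0.247 on the monuron arrays, against 0.194, 0.143 and 0.110 on the corn oil arrays (log2 fold change 0.77 ± 0.22, limma adjusted p = 0.169). Corn oil replicate 3 was lowest at both Slc4a1 probes and highest at both Ahsp probes and the Alas2 probe.

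Genes of the intercalated cell were set beside Slc4a1, from a list of 10 drawn up after the values of Slc4a1 had been seen. Their summed scaled signal was 199, 176 and 160.2 on the monuron arrays, against 194, 190.6 and 149 on the corn oil arrays, and corn oil replicate 3 was again the lowest. Of 15 probes of 8 genes that passed the filter, 0 were called, where 0.832% of all probes tested were called higher and 0.391% lower. Without overlap, 3 lay higher with monuron, against 14.9% of all probes tested. The anion exchanger Slc26a4 had a log2 fold change of -0.23 (limma adjusted p = 0.422) and the proton pump subunit Atp6v1b1 one of 0.10 (limma adjusted p = 0.760). The part of these cells in the Slc4a1 values was not tested.

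Among themselves, the probes of Alas2, Hbb and Hbb-b1 on the one hand and of Slc4a1 on the other ran in opposite order over the 3 corn oil arrays, with replicate 3 highest for the globins and Alas2 and lowest for Slc4a1. On the monuron arrays no such split was seen, and replicate 2 was lowest at the probes of all these genes. Taking the deviation of each array from its group mean, which removes the difference between the groups, the Alas2 probe had a Pearson r of 0.88 and 0.94 with the Hbb probes and of 0.97, 0.92 and 0.73 with the Hbb-b1 probes. With the Ahsp probes r was 0.76 and 0.76, and with the Klf1 probes 0.59 and 0.71. With Gata1 it was 0.81, in which the 3 corn oil values of Gata1 were not above background. With the Slc4a1 probes it was -0.64 and -0.65, and with the Epor probes -0.09 and -0.14. These are descriptions over 6 arrays that share a slide within each group, and they carry no test. Monuron replicate 3 was the highest monuron array at 12 of the 15 probes and monuron replicate 2 the lowest at 12. Corn oil replicate 3 was the highest corn oil array at 11 of the 15.

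**Figure D3:**
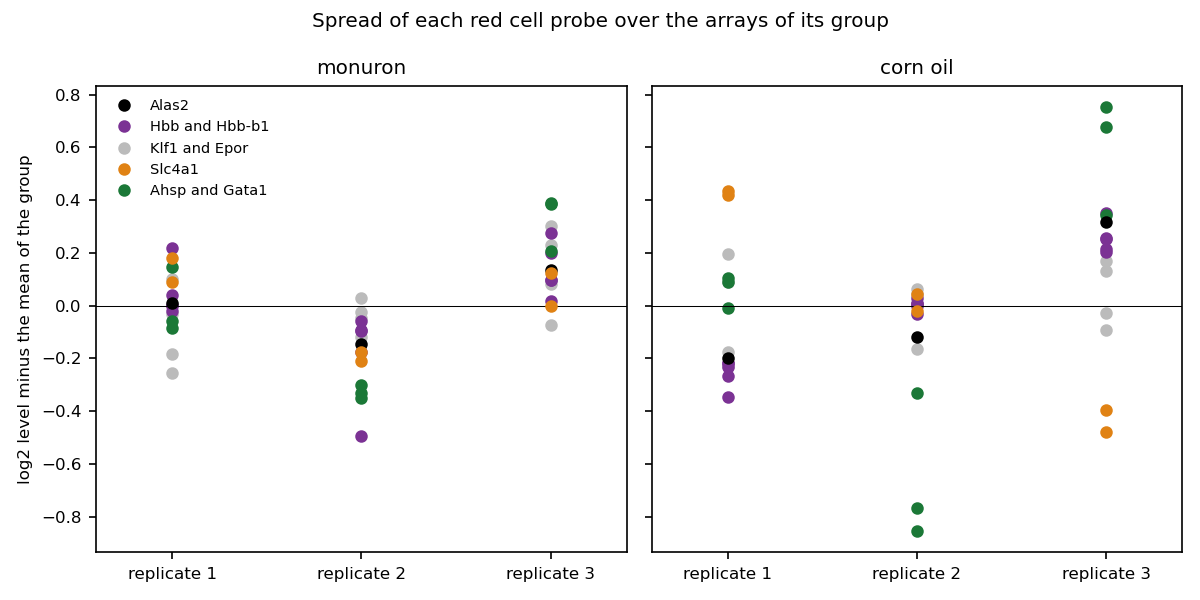
Log2 level of each of the 15 probes minus the mean of its group, 1 point per probe, on the 3 monuron arrays (left) and the 3 corn oil arrays (right). The points of Alas2 and the globins lie above 0 on replicate 3 of both groups, while those of Slc4a1 lie far below 0 on corn oil replicate 3.

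The genes whose levels were most like Alas2 over the 6 arrays included 3 globins among the first 5. Among 948 probes well above background on every array with an SD of at least 0.5 on the log2 scale, the 5 named genes outside the 9 with the highest Pearson r were Cdc25b, Hbe2 and Hbb-bs (0.999 each), Exosc2 (0.996) and Hba-a1 (0.995). Cdc25b, a phosphatase that starts mitosis, had a log2 fold change of 1.75 (limma adjusted p = 0.0119), and Exosc2, a subunit of the RNA exosome, 1.54 (limma adjusted p = 0.0118). For the brightest Ahsp probe the first gene was Rhd, which encodes a Rh antigen of the red cell membrane (r = 0.996), and so it was for Gata1 (r = 0.990, with its undetected corn oil values). For the brightest Hbb probe it was the alpha globin gene Hba-a1 (r = 0.998) and for the brightest Hbb-b1 probe Hbe2 (r = 1.000). The genes nearest to Klf1 were Ugt2b37 (r = 0.997), Ppfia4 (r = 0.991) and Rnls (r = 0.988), followed by Hba-a1 and Hbe2. Slc4a1 had no globin among its 5, which were Terc (r = 0.973), Myc, Cpeb1, Ndc80 and Gch1, and Epor had Chst14 (r = 0.963), Nif3l1, Slc30a3, Tex19.2 and Cks2. Such r values include the difference between the groups.

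Promoters are shown for Alas2, Hbb, Hbb-b1 and Klf1, the 4 of the 9 genes with a called probe, to show what their starts hold. The sequences are RefSeq's, build GRCr8, 250 bases before and 50 after the gene's start, and 7 of the 9 genes were matched (not Slc4a1 and Ahsp). Capitals mark 2 kinds of motif, searched on both strands: the letters AGATAA and AGATAG and also TGATAA and TGATAG, which the GATA factors can bind, and CACCC, the core of the element that Klf1 binds. The Alas2 window is chrX:22895200-22895499 (plus strand), that of Hbb chr1:167663672-167663971 (minus strand), that of Hbb-b1 chr1:167643471-167643770 (minus strand) and that of Klf1 chr19:40158602-40158901 (minus strand).
Alas2: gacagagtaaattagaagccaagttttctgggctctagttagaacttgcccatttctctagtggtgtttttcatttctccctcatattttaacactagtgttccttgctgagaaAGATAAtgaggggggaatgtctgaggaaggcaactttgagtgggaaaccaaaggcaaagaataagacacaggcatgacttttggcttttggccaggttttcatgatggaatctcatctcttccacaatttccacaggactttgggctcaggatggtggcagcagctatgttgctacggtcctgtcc
Hbb: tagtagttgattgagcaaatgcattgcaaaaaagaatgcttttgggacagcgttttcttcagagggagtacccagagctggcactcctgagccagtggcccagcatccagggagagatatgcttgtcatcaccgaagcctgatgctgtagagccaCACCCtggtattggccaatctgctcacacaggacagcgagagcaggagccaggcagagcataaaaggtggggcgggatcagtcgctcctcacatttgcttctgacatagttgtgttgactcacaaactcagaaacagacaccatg
Hbb-b1: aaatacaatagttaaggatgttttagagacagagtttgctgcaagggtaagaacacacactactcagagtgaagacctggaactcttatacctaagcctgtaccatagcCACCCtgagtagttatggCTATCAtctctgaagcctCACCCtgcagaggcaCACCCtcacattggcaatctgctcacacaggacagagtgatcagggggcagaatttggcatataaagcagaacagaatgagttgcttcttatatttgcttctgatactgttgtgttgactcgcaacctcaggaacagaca
Klf1: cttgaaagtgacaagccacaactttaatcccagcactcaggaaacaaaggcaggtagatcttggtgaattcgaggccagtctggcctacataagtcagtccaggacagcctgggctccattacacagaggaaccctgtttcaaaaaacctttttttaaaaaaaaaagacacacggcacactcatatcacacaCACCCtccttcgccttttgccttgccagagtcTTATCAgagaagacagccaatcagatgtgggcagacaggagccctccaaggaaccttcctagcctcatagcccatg

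Alas2 had the letters AGATAA with their first base at -136 from the start, and no CACCC. Hbb had CACCC at -95, inside the longer run CCACACCC that is known from the adult beta globin promoter, and none of the GATA letters. Hbb-b1 held 3 CACCC matches, at -141, -105 and -90, and a TGATAG on the other strand at -123. Klf1 held a CACCC at -58 and a TGATAA on the other strand at -26. Of the 7 windows, 5 held the GATA letters, 6 held CACCC and 4 held both. Among 33469 rat promoter windows of the same length, 30.3% held the GATA letters, 54.9% CACCC, 14.3% both and 3.22% CCACACCC. Epor, whose probes were not called, and Epo, whose probes did not pass the filter, also held both.

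Other globin genes also rose. Outside Hbb and Hbb-b1, 12 probes of 9 globin family genes passed the filter. Of these, 7 probes of 4 genes were called higher and 0 lower. The median log2 fold change of the 12 probes was 1.18, with a range from 0.15 to 2.82. The alpha globin Hba-a1 read 759, 735 and 764 at its brighter probe on the monuron arrays, against 322, 368 and 455 on the corn oil arrays (1.99-fold, limma adjusted p = 0.0368). Hba-a3 read 661, 564 and 701 on the monuron arrays, against 205, 241 and 309 on the corn oil arrays (2.58-fold, limma adjusted p = 0.0332). The beta-type gene Hbb-bs read 206, 174 and 228 on the monuron arrays, against 51.2, 57.3 and 74.4 on the corn oil arrays (3.35-fold, limma adjusted p = 0.0174). Hbe2, named as an epsilon globin, read 185, 165 and 201 on the monuron arrays, against 51.0, 58.6 and 73.6 on the corn oil arrays (3.04-fold, limma adjusted p = 0.0167). All 3 monuron arrays lay above the corn oil arrays for each, and probes of these copies may detect each other's transcripts. Globins of other cells were among those not called. Cytoglobin (Cygb) had a log2 fold change of 0.26 (limma adjusted p = 0.542) and myoglobin (Mb) one of 0.15 (limma adjusted p = 0.514).

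Of the enzymes and transporters of heme synthesis, Alas2 was the only one called among 14 genes and 19 probes (0 called lower, median log2 fold change 0.02). Alas1, the form of the synthase used outside red cells, averaged 34.5 ± 10.3 with monuron and 31.3 ± 0.413 with corn oil (log2 fold change 0.10 ± 0.20, limma adjusted p = 0.834). Alad, which carries out the next step, averaged 135 ± 4.54 with monuron and 139.8 ± 14.6 with corn oil (limma adjusted p = 0.845). Urod, a later enzyme, had a log2 fold change of 0.02 (limma adjusted p = 0.899). These enzymes work in every cell that makes heme, and the kidney cortex has them too.

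Membrane and skeleton genes of the red cell had a median log2 fold change of 0.82 over 18 probes of 14 genes, with 2 probes called higher and 0 lower. Add2, the beta subunit of the skeleton protein adducin, read 0.204, 0.235 and 0.304 with monuron, against 0.0738, 0.0787 and 0.0992 with corn oil (2.94-fold, 95% interval 2.15 to 4.02, limma adjusted p = 0.0290). Epb42, protein 4.2, which ties band 3 to the skeleton, read 0.0252, 0.0270 and 0.0371 at its called probe with monuron, against 0.00775, 0.00822 and 0.00966 with corn oil. No corn oil array detected it, so the probe passed the filter through the monuron arrays alone, and the bound was at least 1.25-fold higher with monuron (limma adjusted p = 0.0164 on the measured values). With dim values set to the floor its log2 fold change was 0.32 and the call was lost (limma adjusted p = 0.670). Rhd read 0.641, 0.510 and 0.716 with monuron, against 0.154, 0.0969 and 0.238 with corn oil, a log2 fold change of 2.02 ± 0.34 that did not pass (limma adjusted p = 0.0643). The glucose transporter Slc2a1, which many cells carry, had a log2 fold change of 0.19 (limma adjusted p = 0.452).

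The genes of reticulocyte maturation analysed here gave 0 calls in either direction among 28 probes of 16 genes by limma, with a median log2 fold change of 0.16 and an unadjusted p under 0.05 at 11 of the 28 probes, against 17.5% of all probes tested (7206 of 41125). All 3 monuron arrays lay above the corn oil arrays at 10 of the 28 probes and below them at 1, against 14.9% and 10.7% of all probes tested. Hemgn, the nuclear protein hemogen, chosen after its values were seen, had a log2 fold change of 2.10 ± 0.33 at 1 probe (limma adjusted p = 0.0537) and of 1.26 at another (limma adjusted p = 0.169). Bpgm, the enzyme that makes bisphosphoglycerate in red cells, had a log2 fold change of 0.49 ± 0.09 (limma adjusted p = 0.0714). Among erythroid transcription factors, 1 probe, of Klf1, was called among 23 probes of 12 genes, with 0 lower and a median of 0.11. Nfe2, a factor of globin gene expression chosen after its values were seen, had a log2 fold change of 1.64 ± 0.34 (limma adjusted p = 0.0992).

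**Figure D4:**
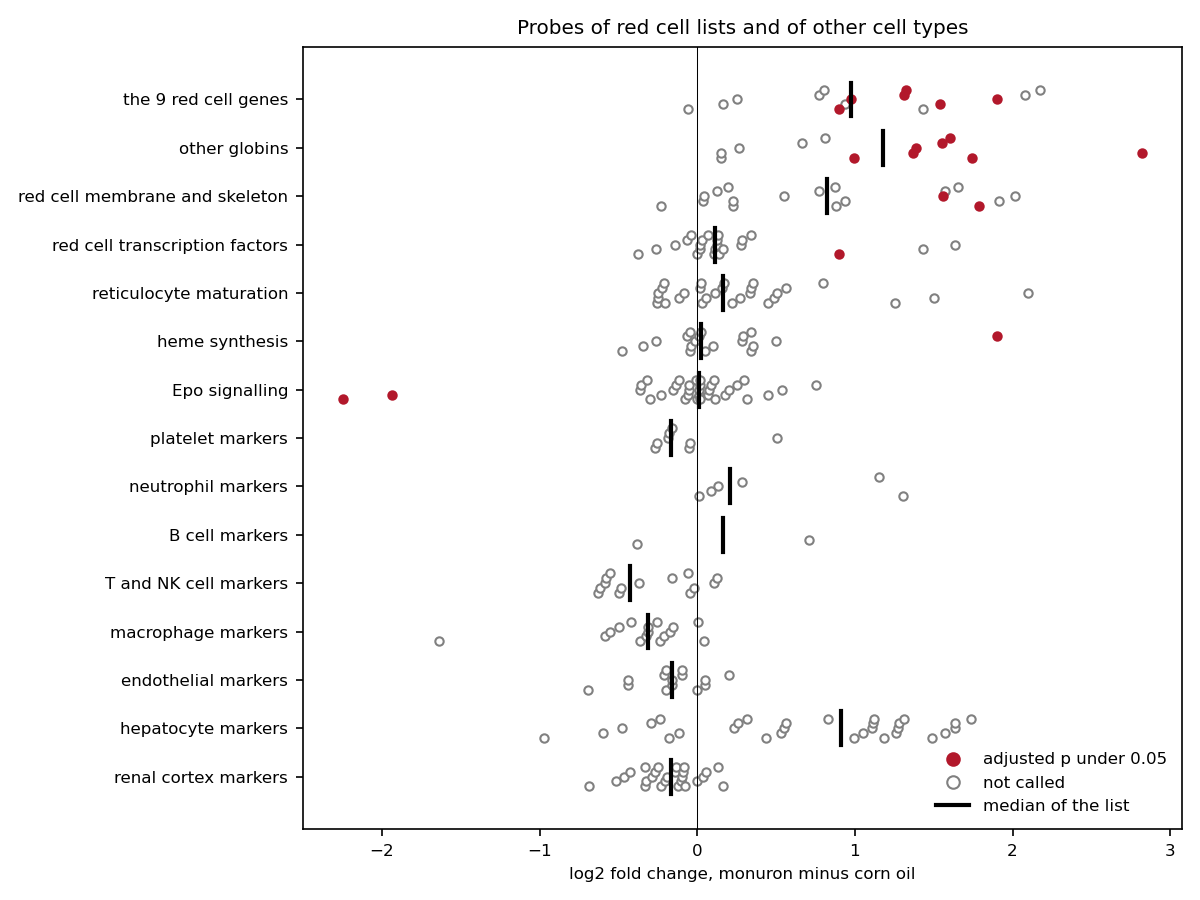
Log2 fold change, monuron minus corn oil, of every probe that passed the filter, by gene list, with a bar for the list's median. The other globins, without Hbb and Hbb-b1 (median 1.18), and the membrane genes (median 0.82) lie to the right of 0, while heme synthesis (median 0.02) and Epo signalling (median 0.01) centre on it and the hepatocyte list spreads widely about its median of 0.91.

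In the list of Epo signalling genes, Cish was lower with monuron. It encodes a SOCS-family inhibitor induced by the transcription factor Stat5 after erythropoietin, growth hormone and other cytokines. Which of these signals, if any, had a part in its level here was not tested. The probe A_64_P046268 read 0.547, 0.417 and 0.398 with monuron, against 2.23, 2.47 and 1.77 with corn oil. Cish fell by 2.25 on the log2 scale there (4.75-fold lower, limma adjusted p = 0.0104) and by 1.93 at its other probe (limma adjusted p = 0.00812). These 2 probes were the only ones called among 34 probes of 16 Epo signalling genes, whose median log2 fold change was 0.01. Bcl2l1, a survival gene of erythroblasts, had a log2 fold change of -0.05 (limma adjusted p = 0.889).

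Genes that set Epo transcription in the kidney gave 0 calls among 34 probes of 16 genes, with a median of -0.01, 2 probes wholly above and 7 wholly below. Among all probes tested, 14.9% lay wholly above and 10.7% wholly below. Of the 34 probes, 7 had an unadjusted limma p under 0.05, against 17.5% of all probes. The oxygen-regulated factor Hif1a averaged 6.20 ± 0.149 with monuron and 6.15 ± 0.113 with corn oil (log2 fold change 0.01, limma adjusted p = 0.940). Vhl, which marks such factors for degradation, had a log2 fold change of 0.01 (limma adjusted p = 0.947), and Hnf4a, a factor that binds the Epo enhancer, -0.31 ± 0.09 (limma adjusted p = 0.179).

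Markers of other blood cells were counted beside the red cell genes. Over all probes tested, 0.832% were called higher and 0.391% lower. In lists this short, here and below, 0 calls therefore cannot show a lack of change. Platelet markers gave 0 calls among 8 probes of 5 genes, a median log2 fold change of -0.17, and a summed scaled signal of 2.11 to 2.24 with monuron and 2.23 to 2.63 with corn oil. T and NK cell markers gave 0 calls among 14 probes of 11 genes (median -0.43, summed signal 2.53 to 3.38 with monuron and 3.10 to 3.45 with corn oil). B cell markers gave 0 calls among 2 probes of 2 genes (summed signal 0.873 to 1.38 with monuron and 1.23 to 1.79 with corn oil), with Blk never well above background. Neutrophil markers gave 0 calls among 6 probes of 6 genes, with a median of 0.21, and Cebpe, Elane, Ltf, Mmp8 and Ngp were never well above background. Their summed signal was 1.40 to 2.83 with monuron and 0.959 to 1.18 with corn oil, without overlap. S100a8, a calcium-binding protein of neutrophils, read 0.303, 0.813 and 0.591 with monuron, against 0.227, 0.166 and 0.256 with corn oil (log2 fold change 1.31 ± 0.38, limma adjusted p = 0.176). The part of neutrophils in the red cell values was not tested.

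Markers of cells of the tissue itself had medians below 0. Macrophage markers had a median of -0.31 over 16 probes of 10 genes (0 calls, Marco never above background), with summed signals of 17.6 to 25.6 with monuron and 21.3 to 30.5 with corn oil. Endothelial markers had a median of -0.16 over 14 probes of 8 genes (0 calls, summed signals 29.7 to 36.9 with monuron and 35.4 to 38.2 with corn oil). The 14 renal cortex genes had one of -0.17 over 26 probes (0 calls, 9 wholly below, against 10.7% of all probes tested).

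Hepatocyte markers, some of which the kidney transcribes too, had a median log2 fold change of 0.91 over 30 probes of 16 genes, with 0 calls, 23 probes above 0, and Cps1 and Tat never well above background. Their summed signal was 74.97, 46.2 and 36.7 on the monuron arrays, against 24.6, 30.7 and 49.4 on the corn oil arrays, so the groups overlapped. Alb, serum albumin, read 15.3, 4.35 and 4.11 with monuron, against 1.33, 1.09 and 6.34 with corn oil (limma adjusted p = 0.378). Monuron replicate 1 and corn oil replicate 3 were the highest arrays of their groups. Without this pair the log2 fold change of Alas2 was 2.05 (limma adjusted p = 0.137), and those of the Slc4a1 probes were 0.65 (limma adjusted p = 0.340) and 0.48 (limma adjusted p = 0.400). The part of hepatocyte RNA in the values of the other genes was not tested.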

How the data were processed

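Renal cortex RNA of 6 rats was measured on 1-colour Agilent arrays, 3 per group, named as replicates 1 to 3 in the labels. The deposited scanner files hold linear spot intensity. Per the submitters' processing notes, the authors used Agilent Feature Extraction 10.7. The authors' value table, also deposited, is a linear ratio: its values of at least 0.1 equal the processed signal over 1 constant per array within 0.0497%. Its column medians were 0.111, 0.111 and 0.110 for monuron replicates 1 to 3 and 0.108, 0.111 and 0.112 for corn oil replicates 1 to 3, and its 75th percentiles were about 1. It was used as an alternative, on the log2 scale, computed here from the deposited table.

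Each value tested was the log2 processed signal minus that of the array's 75th percentile over 61537 non-control probes. The 1439 control spots and outlier spots were left out (0 in the probes of the 9 genes). Probes were named by matching their accession to a RefSeq gene table (GRCr8), which named 28206 probes (45.8%). The array design cites an older build, so no probe coordinates are given. The 41125 probes detected by all 3 arrays of either group were each tested in R 4.3.3 with lmFit and then eBayes of limma 3.58.1, two-sided, with Benjamini-Hochberg adjustment over all of them. Errors are SD over 3 rats for levels and SE for log2 fold changes. Precision rests on the 3 arrays of each group and their spread, and the number of probes adds none. The script was tested on simulated data.

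The genes, lists and alternatives were chosen with earlier results of these data known. All probes of the 9 genes are described. Of each other list, called genes (at most 6, by p) and up to 4 uncalled genes of highest mean level could be named, with exceptions marked. 1 gene of the reticulocyte list is not reported here, and that list is counted without it. The plan counted on protein sequences, which are not used here, and on the mean spot signal, in whose place normexp took the median spot signal. Alternatives were other scalings (quantile, median, none, spike-in), normexp, the authors' table, other filters and a floor on dim probes, other ways to combine probes, other variance models, the replicate number as a block, and leaving out arrays. The spot files give no depth beyond signal over background.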

Additional observations from a re-analysis of the deposited data

How the results depend on the processing

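Over all probes, 342 were called higher and 161 lower. Higher calls numbered 542 with normexp and quantile normalization, 86 without a detection filter, 587 with trend and robust variance, and 0 with monuron replicate 1 and corn oil replicate 3 left out, with 5564 unadjusted p under 0.05. Without any single array they ranged from 19 to 153. Lower calls numbered 78 without scaling, 28871 with spike-in scaling, 385 with normexp, 30 without a filter, 371 with trend and robust variance, 0 without that pair, and 2 to 37 without single arrays. For the red cell genes, the 6 higher calls became 9 with spike-in scaling, 8 with normexp, 7 without scaling, 1 (Alas2) without a filter, 4 with the brightest probe of each gene, 3 of 8 genes with probes averaged, 0 without the pair (10 unadjusted p under 0.05) and 0 to 5 without single arrays. Spike-in scaling, from 7 probes, moved the median of all probes to -0.49 and that of the 15 probes to 0.47, and no scaling moved them to 0.11 and 1.06. With spike-in scaling 30655 of all probes had an unadjusted limma p under 0.05. The adjustment was looser there, so its 9 higher calls cannot be read as larger differences. Spike-in scaling gave 1 lower call (Epor A_44_P486972, -0.57) and turned Klf1 A_64_P132014 (-0.35) and Epor A_64_P021686 (-0.26). Klf1 A_64_P132014 was also turned by normexp (-0.0083). Epor A_44_P486972 turned without scaling (0.026), with normexp (0.014), without monuron replicate 1 (0.068, with -0.17 to 0.068 over single arrays left out) and without the pair (0.022). Gata1, whose corn oil values were not above background, was called without scaling (1.52, limma adjusted p = 0.0371) and with spike-in scaling (0.92, limma adjusted p = 0.0137). It was not called with dim values at the floor (0.085, limma adjusted p = 0.925). The other 12 probes kept a log2 fold change above 0 in every alternative run, Alas2 between 1.39 and 2.06. Same-numbered arrays did not deviate together (r = -0.081, 0.10 and -0.16), so the numbers are not taken as pairs. With the replicate number as a block, 0 probes were called higher and 0 lower, of all and of the red cell genes alike, by limma, with unadjusted p under 0.05 at 6179 of all probes and 12 of the 15. The causes were not tested. Precision is limited by 3 arrays per group, and Gata1 and Epo by signals at background.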

Other observations

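Genes that take up and break down hemoglobin and heme gave 0 calls among 27 probes of 13 genes by limma, with a median log2 fold change of 0.16. On the monuron arrays 8 of these probes lay wholly above the corn oil arrays and 4 wholly below, against 14.9% and 10.7% of all probes tested. The scavenger receptor Cd163 was never well above background. The ferritin chains Ftl1 and Fth1, which store iron, had log2 fold changes of 0.10 (limma adjusted p = 0.577) and 0.07 (limma adjusted p = 0.621). Lrp2 and Cubn, the megalin and cubilin receptors by which the proximal tubule takes up filtered hemoglobin, had log2 fold changes of -0.52 ± 0.10 (limma adjusted p = 0.0787) and -0.69 ± 0.12 (limma adjusted p = 0.0697).

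Chosen after its values were seen, Hmox1, heme oxygenase 1, which opens the heme ring, read 49.1, 0.857 and 0.859 on the monuron arrays, against 0.338, 0.469 and 0.405 on the corn oil arrays. Monuron replicate 1 alone set its mean (log2 fold change 3.05 ± 1.61, limma adjusted p = 0.389), while the other 2 monuron arrays also lay above the corn oil arrays. Blvrb, a biliverdin reductase, chosen likewise, read 13.5, 12.3 and 12.4 with monuron, against 7.77, 9.55 and 8.70 with corn oil (log2 fold change 0.55 ± 0.10, limma adjusted p = 0.0723).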
